A study of Drosophila melanogaster with 8 samples.

Results

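The genes described here are translation initiation and elongation factors in Drosophila heads. They were chosen as every gene symbol in the deposited tables that begins with eIF, eEF, Ef1 or EF2. This choice leaves out 18 further genes that are now named as eIF or eEF factors, among them subunits of eIF3. The rule found 35 of 16727 genes, with 92 of 35411 transcripts, and 30 of the 35 reached 1 FPKM (fragments per kilobase of transcript and M mapped reads) in at least 2 libraries and were tested. Poly(A) RNA from heads was sequenced from 4 groups of 2 libraries: vriΔ679 mutants at ZT14, wild type at ZT14, vriΔ679 mutants at ZT2 and wild type at ZT2. The wild-type flies were labelled as strain w1118, and vriΔ679 is an allele of vri, whose product VRILLE is a transcriptional repressor of the circadian clock. All flies were kept under 12 h of light and 12 h of dark at 25 °C and entrained for 3 days, with ZT2 early in the light phase and ZT14 early in the dark phase. The question was how the genotypes and the times differ in the mRNA of these factors. The labels give neither the age and sex of the flies nor the number of heads in a library. Whether the 2 libraries of a group came from different cultures is not stated, and p-values then cover only the spread between libraries, which may be technical. In bulk heads, fewer cells of a type and less RNA per cell cannot be told apart.

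Initiation begins when the factor that binds the mRNA cap, eIF4E, joins the scaffold eIF4G and the RNA helicase eIF4A, and the small ribosomal subunit, carrying eIF3 and the initiator tRNA held by eIF2, scans to the start codon. eIF2 is recharged with GTP by its exchange factor eIF2B, the step that stress kinases block by phosphorylating eIF2alpha. During elongation eEF1A delivers aminoacyl-tRNAs, the eEF1B subunits recharge eEF1A with GTP, and eEF2 moves the ribosome along the mRNA. The tables use older symbols for 30 of the 35 genes. Ef1alpha48D and Ef1alpha100E are now eEF1alpha1 and eEF1alpha2, EF2 is eEF2, eIF-4a is eIF4A, eIF-4E is eIF4E1 and eIF-5A is eEF5. The eIF3 subunits eIF3-S10, eIF3-S9, eIF3-S8, eIF-3p66 and eIF-3p40 are now eIF3a, eIF3b, eIF3c, eIF3d1 and eIF3h.

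The allele was checked first in its target. The long form of vri had 0.219 FPKM in vriΔ679 ZT14 replicate 1 and 31.1 FPKM in the library labelled vriΔ679 ZT14 replicate 2, against 80.3 and 69.6 FPKM in wild type at ZT14. At ZT2 it had 0.0189 and 0.0122 FPKM in vriΔ679 and 9.44 and 10.5 FPKM in wild type. The library labelled vriΔ679 ZT14 replicate 2 thus went against its label in part. Most calls, counts and named differences that rest on it are given with and without it, or for both vriΔ679 ZT14 libraries side by side. Counts of unadjusted p are given with all libraries only. White (w) was also lower in all vriΔ679 libraries, 0.0338 to 0.0847 FPKM against 2.07 to 5.80 FPKM in wild type, and effects of vri and of other differences between these stocks cannot be told apart. The strain name w1118 stands for a loss-of-function allele of w, so this level of w in the libraries labelled wild type went against that label in part. The libraries held 49.3 to 65.4 M mapped reads, and the factors took 1.19 to 1.58 % of the listed FPKM. The 5 neuron markers summed to 525 to 773 scaled FPKM and the 5 photoreceptor markers to 12672 to 23088, while 5 testis markers summed to 1.48 to 3.49, with Mst84Da at 0 in all 8 libraries, and 4 ovary markers to 0.214 to 1.00. The 4 gut markers summed to 3.83 to 23.6, with the highest sums, 16.8 and 23.6, in wild type at ZT2. The replicates of vriΔ679 ZT14 stood farthest apart, with a median difference of 0.27 on the log2 scale over the 30 factors, against 0.11, 0.17 and 0.10 in wild type at ZT14, vriΔ679 at ZT2 and wild type at ZT2. In vriΔ679 ZT14, 26 of the 30 were higher in replicate 1 than in the library labelled replicate 2. In vriΔ679 at ZT2, 25 were higher in replicate 1 than in replicate 2, against 18 in wild type at ZT14 and 19 in wild type at ZT2.

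Levels are given below as scaled FPKM, in which library medians are matched and transcripts of a gene are summed, and which are per length. The 6 elongation factors, counted without eIF-5A (now eEF5), made up most of the pool. Of the summed level of the 35 genes, they took 58.3 and 56.9 % in vriΔ679 and 57.7 and 54.2 % in wild type at ZT14. At ZT2 they took 59.7 and 57.1 % in vriΔ679 and 61.6 and 60.2 % in wild type. Ef1alpha48D, the main eEF1A gene, was the most abundant, with 1698 and 1389 in vriΔ679 at ZT14, 1630 and 1335 in wild type at ZT14, 1983 and 1423 in vriΔ679 at ZT2 and 2484 and 2087 in wild type at ZT2. EF2, which moves the ribosome by a codon, followed with 1142 and 1076 in vriΔ679 at ZT14, 1263 and 1173 in wild type at ZT14, 1276 and 1098 in vriΔ679 at ZT2 and 1432 and 1308 in wild type at ZT2. For Ef1alpha48D and EF2 the wild-type ZT2 libraries were the highest, and the other 3 groups overlapped for Ef1alpha48D. eIF-4a, the helicase that unwinds the 5′ end of mRNAs, came next with a mean of 769 over the 8 libraries, then eIF-5A, the hypusine-bearing factor that helps stalled ribosomes, with 659. eIF-5A had 672 and 622 in vriΔ679 at ZT14, 564 and 654 in wild type at ZT14, 726 and 664 in vriΔ679 at ZT2 and 747 and 621 in wild type at ZT2, and the genotypes overlapped at each time. Ef1beta, an exchange factor for eEF1A, averaged 501, and Ef1gamma, its structural partner in eEF1B, 383. Ef1gamma had 399 and 308 in vriΔ679 at ZT14, 392 and 324 in wild type at ZT14, 386 and 302 in vriΔ679 at ZT2 and 477 and 472 in wild type at ZT2, so only the wild-type ZT2 libraries stood apart.

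**Figure D1:**
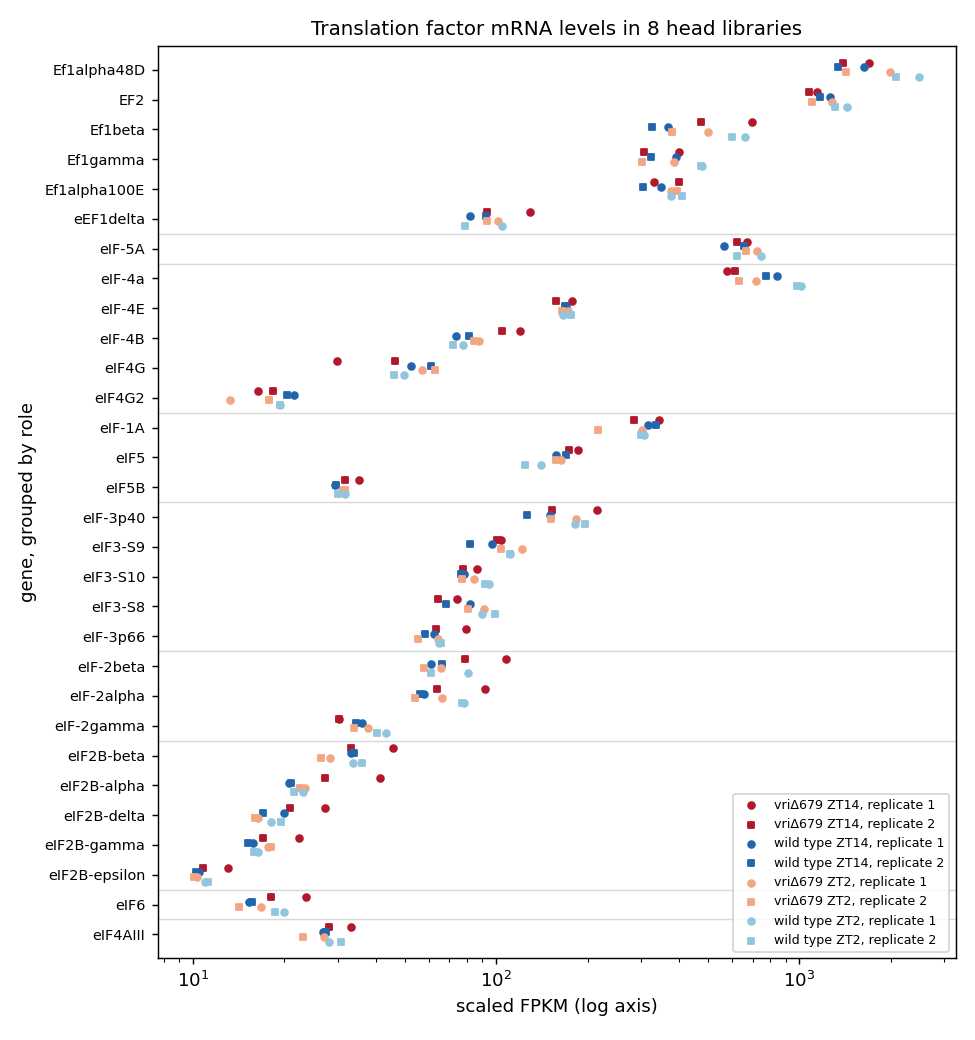
Scaled FPKM (log axis) of the 30 tested factors in the 8 libraries, grouped by role, with circles for replicate 1 and squares for replicate 2 and colours for the 4 groups. Mean levels run from 10.9 for eIF2B-epsilon to 1754 for Ef1alpha48D, and the spread between libraries is small beside the spread between genes.

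The initiation factors spanned a wide range, from a mean of 10.9 for eIF2B-epsilon to the 769 of eIF-4a. Among those that bind the cap or unwind the mRNA, eIF-4E was the steadiest of all 30, with 178 and 158 in vriΔ679 at ZT14, 170 and 168 in wild type at ZT14, 173 and 165 in vriΔ679 at ZT2 and 166 and 177 in wild type at ZT2. Its highest library was 1.13 times its lowest, and the 4 groups overlapped. eIF4G, the scaffold, averaged 50.5 and varied 2.11-fold between libraries, the widest range of the 30 after the 2.14-fold range of Ef1beta. The start-site and subunit-joining factors averaged 301 (eIF-1A, which keeps the scanning ribosome open), 159 (eIF5, which triggers GTP hydrolysis by eIF2) and 31.3 (eIF5B, which joins the large subunit). The 5 eIF3 subunits averaged 64.1 to 170, the 3 subunits of eIF2 35.8 to 72.2 and the 5 of eIF2B 10.9 to 33.8. eIF6, which keeps the large subunit from joining too early, averaged 17.7, and eIF4AIII, the helicase of the exon junction complex, 28.1.

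Some factors have paralogs, and in each family 1 or 2 carried nearly all of the mRNA. Ef1alpha100E, the second eEF1A gene, had 332 and 400 in vriΔ679 at ZT14, 349 and 306 in wild type at ZT14, 378 and 394 in vriΔ679 at ZT2 and 376 and 411 in wild type at ZT2. Ef1alpha48D was 3.47 to 6.61 times as abundant, although reads shared by these 2 close copies may have been split between them. Of the eIF4E group, only eIF-4E was tested. eIF4E-6 had 1.10 and 0.909 in vriΔ679 at ZT14, 0.477 and 0.394 in wild type at ZT14, 0.593 and 0.563 in vriΔ679 at ZT2 and 0.740 and 0.632 in wild type at ZT2. eIF4E-4, eIF4E-5 and eIF4E-7 stayed between 0 and 0.573, and eIF4E-3, which Drosophila males need for meiosis, between 0 and 0.0341, with 0 in 6 of the 8 libraries. At this depth 3 reads on a transcript of 2 kb equal 0.0229 to 0.0304 FPKM, so eIF4E-3 was at the limit that counting allows. This limit covers counting error only. eIF4G2, the second eIF4G of the fly, known for its role in the male germline, averaged 18.3 against 50.5 for eIF4G.

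At ZT14, 2 of the 30 tested factors differed between vriΔ679 and wild type by limma's test with Benjamini-Hochberg adjustment over all 10122 genes tested, and both, eIF-4B and eIF2B-alpha, were higher in vriΔ679. Over all genes tested, 22.3 % were called in this comparison, 9.53 % higher and 12.8 % lower in vriΔ679. The median log2 difference over the 30 was 0.17, with 21 above 0 and 9 below, against -0.01 over all genes. The libraries of vriΔ679 lay wholly above those of wild type for 16 factors and wholly below for 5, where 31.6 % of all genes lay above and 31.6 % below. When the library labelled vriΔ679 ZT14 replicate 2 was left out 23 lay above and 5 below, where 45.6 and 46.3 % of all genes did, and 17 lay above and 9 below without replicate 1, where 43.5 and 43.8 % did. The groups of cell type markers also stood apart at ZT14. Glia markers summed to 633 and 616 scaled FPKM in vriΔ679 against 1169 and 1087 in wild type, fat body markers to 2699 and 1728 against 7452 and 3589, muscle markers to 2829 and 2475 against 4612 and 5084, hemocyte markers to 39.5 and 37.1 against 109 and 124, and photoreceptor markers to 22934 and 23088 against 15233 and 12672. Neuron markers overlapped, with 525 and 724 in vriΔ679 and 685 and 647 in wild type. No defining marker of these types was at 0 in any library. Each sum follows its most abundant markers most, so a difference in a sum can come from a single gene. The part of these marker differences in the factor levels was not tested.

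eIF-4B (3L 27842669–27858271, minus strand, dm6), which stimulates the eIF4A helicase, had 119 and 105 scaled FPKM in vriΔ679 at ZT14, against 73.7 and 81.1 in wild type. Both vriΔ679 libraries were above both wild-type libraries, a 1.45-fold difference of the means. The log2 difference was 0.53 ± 0.12 (SE, n = 2 each, limma adjusted p = 0.0242). It was 0.62 without the library labelled vriΔ679 ZT14 replicate 2 (limma adjusted p = 0.00614) and 0.43 without replicate 1 (limma adjusted p = 0.0396). The call ended when any of the 4 wild-type libraries or either vriΔ679 ZT2 library was left out, with adjusted p up to 0.147.

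eIF2B-alpha (3R 29934582–29935888, minus strand), a regulatory subunit of eIF2B, had 41.2 and 27.3 in vriΔ679 at ZT14, against 20.7 and 21.0 in wild type. Both vriΔ679 libraries were above wild type, but replicate 1 was far above the other, so that the means were 34.2 ± 9.83 in vriΔ679 and 20.8 ± 0.208 in wild type (SD, n = 2 each). The log2 difference was 0.67 ± 0.19 (SE, limma adjusted p = 0.0432), 0.97 without the library labelled vriΔ679 ZT14 replicate 2 (limma adjusted p = 0.00123) and 0.38 without replicate 1 (limma adjusted p = 0.0313). As for eIF-4B, the call was lost without any 1 of the other 6 libraries, with adjusted p up to 0.177.

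The remaining initiation factors gave no call at ZT14. The other 4 eIF2B subunits had log2 differences of 0.19 to 0.37, and all 5 were above 0. In libraries, eIF2B-delta had 27.3 and 20.8 in vriΔ679 against 19.9 and 17.0 in wild type, and eIF2B-gamma had 22.3 and 17.0 against 15.7 and 15.2. eIF2B-epsilon, the catalytic subunit, had 13.0 and 10.8 against 10.5 and 10.2, while eIF2B-beta overlapped, with 45.6 and 33.2 against 33.2 and 33.9. In each of these 4 it was replicate 1 of vriΔ679 that stood high. The subunits of eIF2 itself did not move as a block. eIF-2alpha, the subunit that stress kinases phosphorylate, had 91.8 and 63.6 in vriΔ679 against 57.6 and 55.8 in wild type (log2 difference 0.43 ± 0.19, limma adjusted p = 0.144), and the difference was 0.69 without the library labelled vriΔ679 ZT14 replicate 2 (limma adjusted p = 0.00929) and 0.16 without replicate 1 (limma adjusted p = 0.425). eIF-2beta had 107 and 78.8 against 60.9 and 65.9 (0.53 ± 0.20, limma adjusted p = 0.0934), a difference of 0.75 without the library labelled vriΔ679 ZT14 replicate 2 (limma adjusted p = 0.0180) and of 0.31 without replicate 1 (limma adjusted p = 0.268). eIF-2gamma, which binds GTP and the initiator tRNA, lay on the other side, with 30.3 in both vriΔ679 libraries against 36.1 and 34.4 in wild type (-0.21 ± 0.11, limma adjusted p = 0.193), and without either vriΔ679 ZT14 library the difference stayed between -0.22 and -0.21. Exons of eIF-2gamma share 352 bases with Su(var)3-9 on the same strand, so the value of eIF-2gamma is uncertain. The 5 eIF3 subunits had a median log2 difference of 0.20, from -0.11 for eIF3-S8 to 0.39 for eIF-3p40, and the median was 0.22 without the library labelled vriΔ679 ZT14 replicate 2 and 0.07 without replicate 1.

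Among the cap and scanning factors, eIF-4B was the only one of 5 above 0 at ZT14. eIF4G had 29.7 and 46.4 in vriΔ679 against 52.5 and 60.7 in wild type, a log2 difference of -0.60 ± 0.21 (limma adjusted p = 0.0823), with replicate 1 of vriΔ679 the lowest of all 8 libraries. Without the library labelled vriΔ679 ZT14 replicate 2 the difference was -0.92 (limma adjusted p = 0.00318), and without replicate 1 it was -0.28 (limma adjusted p = 0.170). eIF-4a had 577 and 611 against 844 and 774 (log2 difference -0.45 ± 0.14, limma adjusted p = 0.0614). Here the 2 vriΔ679 libraries lay close together and below both wild-type libraries. The eIF-4a difference was -0.49 without the library labelled vriΔ679 ZT14 replicate 2 and -0.40 without replicate 1. eIF-4E did not separate the genotypes, with a log2 difference of -0.01 ± 0.12.

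The elongation factors had a median log2 difference of 0.11 at ZT14, which was 0.18 without the library labelled vriΔ679 ZT14 replicate 2 and 0.0080 without replicate 1, and none was called. Ef1beta had 700 and 474 in vriΔ679 against 369 and 327 in wild type, a log2 difference of 0.73 ± 0.23 (limma adjusted p = 0.0604) that was 1.01 without the library labelled vriΔ679 ZT14 replicate 2 (limma adjusted p = 0.00778) and 0.45 without replicate 1. Ef1beta was also called at ZT14 with no rescaling, equal totals, quantile normalization and the replicate block. eEF1delta, the other exchange subunit, had 129 and 93.1 against 81.6 and 92.1 (0.34 ± 0.20, with 0.57 without the library labelled vriΔ679 ZT14 replicate 2 and 0.10 without replicate 1), and Ef1gamma differed by -0.02 ± 0.19. Ef1alpha48D differed by 0.06 ± 0.23 and EF2 by -0.14 ± 0.15, and neither was called. Without the library labelled vriΔ679 ZT14 replicate 2, Ef1gamma differed by 0.16, Ef1alpha48D by 0.20 and EF2 by -0.09. Without replicate 1 the differences were -0.21 for Ef1gamma, -0.09 for Ef1alpha48D and -0.18 for EF2. The genotypes overlapped for Ef1alpha48D, while both vriΔ679 libraries lay below both wild-type libraries for EF2.

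**Figure D2:**
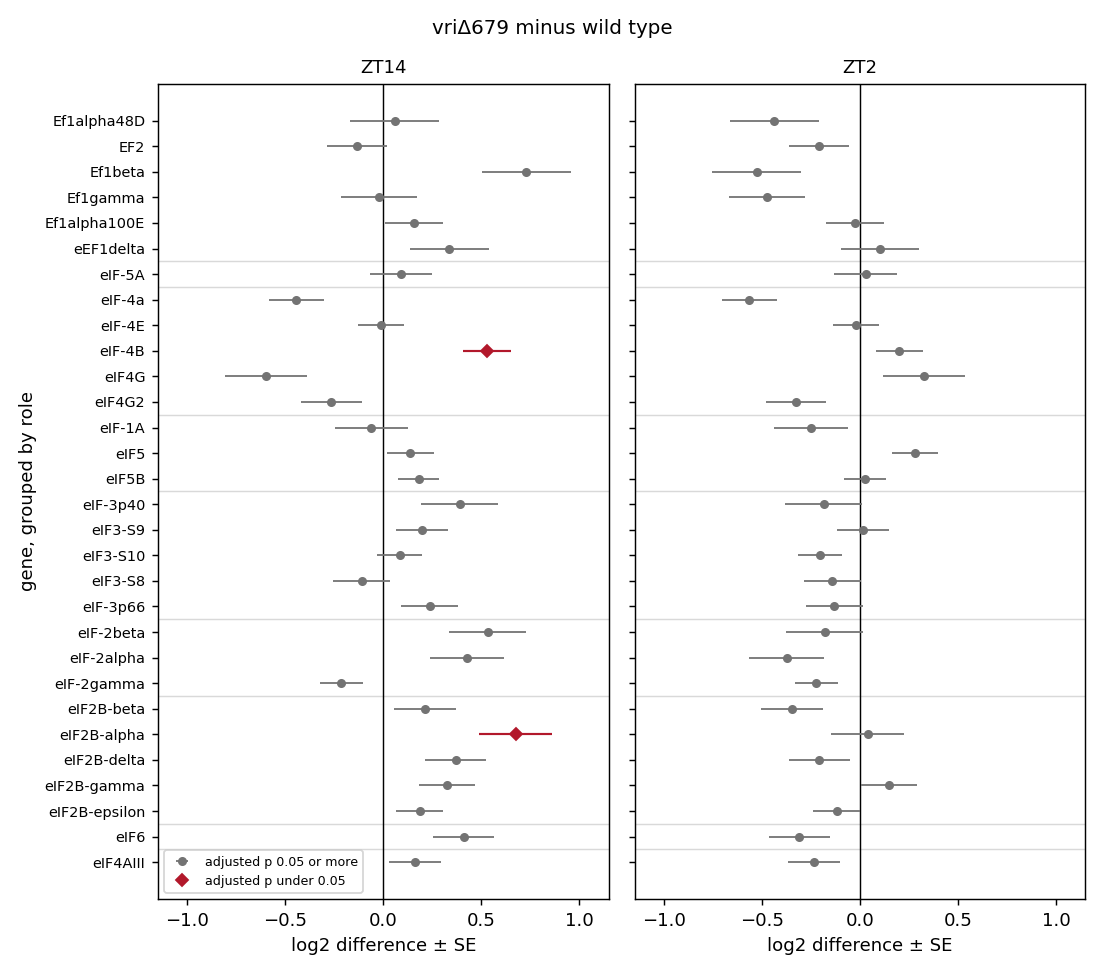
Log2 difference between vriΔ679 and wild type (vriΔ679 minus wild type, points with SE bars from the limma fit, n = 2 libraries a group) for the 30 factors at ZT14 (left) and ZT2 (right). Only eIF-4B (0.53) and eIF2B-alpha (0.67) at ZT14 passed an adjusted p of 0.05, and eIF-4a lies left of 0 in both panels.

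The size of the ZT14 differences depended on which vriΔ679 library was used. Set against the mean of the wild-type ZT14 libraries, the 30 factors had a median log2 difference of 0.24 in vriΔ679 replicate 1, with 24 above 0, and of 0.06 in the library labelled replicate 2, with 19 above 0. The 5 eIF2B subunits had medians of 0.51 and 0.13 and the 3 eIF2 subunits of 0.69 and 0.16 in the same libraries. Cytosolic ribosomal proteins, the structural partners of these factors, showed the same order, with medians of 0.89 (85 of 85 above 0) and 0.23 (73 of 85 above 0). Without the library labelled vriΔ679 ZT14 replicate 2, 16 of the 30 factors were called (14 higher and 2 lower in vriΔ679), but 51.3 % of all genes were called as well. Those 16 held all 5 eIF2B subunits, eIF-2alpha, eIF-2beta, eIF6, eIF5B, eIF-3p40, eIF-3p66, Ef1beta, eEF1delta and eIF-4B on the higher side and eIF-4a and eIF4G on the lower. Without replicate 1 the same 2 factors as with all libraries were called, eIF-4B and eIF2B-alpha, where 21.5 % of all genes were. Each of these fits leaves 1 library in the vriΔ679 ZT14 group, which is then assumed to vary like the other groups.

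**Figure D3:**
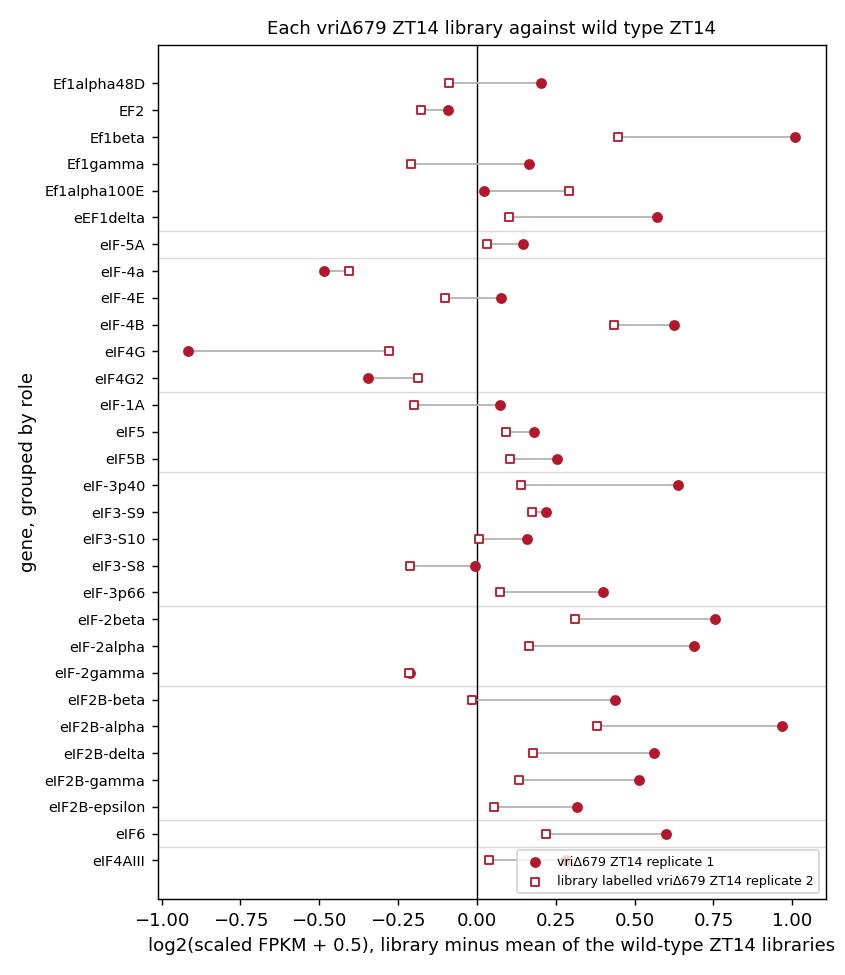
Each of the 2 vriΔ679 ZT14 libraries minus the mean of the 2 wild-type ZT14 libraries, on log2(scaled FPKM + 0.5), with filled circles for replicate 1 and open squares for the library labelled replicate 2. The open squares lie nearer to 0 for most factors, while for eIF-4a and eIF-2gamma both libraries lie on the same side at similar size. For EF2 both lie below 0, with the open square farther out, at -0.18 against -0.09.

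At ZT2 no factor was called between vriΔ679 and wild type by limma, where 2.88 % of all genes were, and 2 had an unadjusted p under 0.05 (eIF-4a and Ef1gamma), where 14.4 % of all genes did. The median log2 difference was -0.18, with 9 factors above 0 and 21 below, against -0.00459 over all genes. The median was -0.07 without vriΔ679 ZT2 replicate 2, and -0.08 with equal totals, a scaling that moved the median of all genes to 0.09. The vriΔ679 libraries lay wholly below those of wild type for 15 factors and wholly above for 4, where 29.3 % of all genes lay below and 28.4 % above. eIF-4a had 721 and 630 in vriΔ679 against 1012 and 984 in wild type, a log2 difference of -0.57 ± 0.14 (limma adjusted p = 0.109), and was called when either vriΔ679 ZT14 library was left out of the shared fit (lowest adjusted p = 0.0392), where 6.03 % of all genes without replicate 1 and 6.11 % without the library labelled replicate 2 were called. Ef1gamma differed by -0.47 ± 0.19 (limma adjusted p = 0.332). Elongation factors had a median of -0.32, with Ef1alpha48D at -0.44 ± 0.23 and Ef1beta at -0.53 ± 0.23, neither past the test. Ef1beta had 500 and 379 in vriΔ679 at ZT2 against 660 and 597 in wild type, and eIF4G had 57.0 and 62.8 against 49.5 and 45.9. The 3 eIF2 subunits lay at -0.37 to -0.18 and the 5 eIF2B subunits at -0.35 to 0.15, with no call. Glia markers summed to 823 and 664 scaled FPKM in vriΔ679 at ZT2 against 982 and 875 in wild type. Photoreceptor markers summed to 17278 and 15913 against 18211 and 19619. Neuron, fat body, muscle and hemocyte markers overlapped between the genotypes at ZT2. The part of these marker differences at ZT2 was not tested.

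Over both times, 2 of 30 factors differed between the genotypes, 1 in each direction, where 14.1 % of all genes did, 5.87 % higher and 8.2 % lower. eIF-4a (2L 5981764–5985909, plus strand) was lower in vriΔ679, with a mean log2 difference of -0.51 ± 0.10 (SE, 4 libraries a genotype, limma adjusted p = 0.0202), 0.702 times the wild-type level. All 4 vriΔ679 libraries (577, 611, 721 and 630) lay below all 4 wild-type libraries (844, 774, 1012 and 984). The difference was -0.53 without the library labelled vriΔ679 ZT14 replicate 2 and -0.49 without replicate 1, and both kept the call, where 40.5 and 21.7 % of all genes were called. The call also held without vriΔ679 ZT2 replicate 1 and was lost without vriΔ679 ZT2 replicate 2 or any wild-type library, with adjusted p up to 0.0953 and differences of -0.55 to -0.46. eIF-4B was higher in vriΔ679, by 0.36 ± 0.09 (limma adjusted p = 0.0348), with 119, 105, 87.9 and 84.3 in vriΔ679 against 73.7, 81.1, 77.9 and 72.0 in wild type, again without overlap. The eIF-4B call held without either vriΔ679 ZT14 library and was lost without any of the other 6 libraries (adjusted p up to 0.143, differences of 0.33 to 0.40). Groups of 4 libraries did not overlap for 4 factors, eIF-4B and eIF2B-gamma above and eIF-4a and eIF4G2 below, where 6.54 and 6.32 % of all genes lay above and below. The same 4 factors lay apart without the library labelled vriΔ679 ZT14 replicate 2, where 8.29 and 7.81 % of all genes lay above and below, and without replicate 1, where 9.18 and 9.47 % did. Exons of eIF4G2 share 779 bases with CG33111 and those of eIF5 share 2588 bases with CG46312 on the same strand, so the values of eIF4G2 and eIF5 are uncertain. Glia markers were also lower in all 4 vriΔ679 libraries (633, 616, 823 and 664 scaled FPKM) than in all 4 wild-type libraries (1169, 1087, 982 and 875). Neuron, photoreceptor, fat body, muscle and hemocyte markers overlapped over both times. The part of this difference in glia markers in the factor levels was not tested.

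eIF-4a and eIF-4B work as a pair and moved in opposite directions, so their ratio was formed after the values had been seen. eIF-4a was 4.83 and 5.84 times as abundant as eIF-4B in vriΔ679 at ZT14 and 11.5 and 9.54 times in wild type at ZT14. At ZT2 it was 8.20 and 7.47 times as abundant in vriΔ679 and 13.0 and 13.7 times in wild type. Every vriΔ679 library had a lower ratio than every wild-type library, and no test was made, since the genes were chosen for this pattern.

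**Figure D4:**
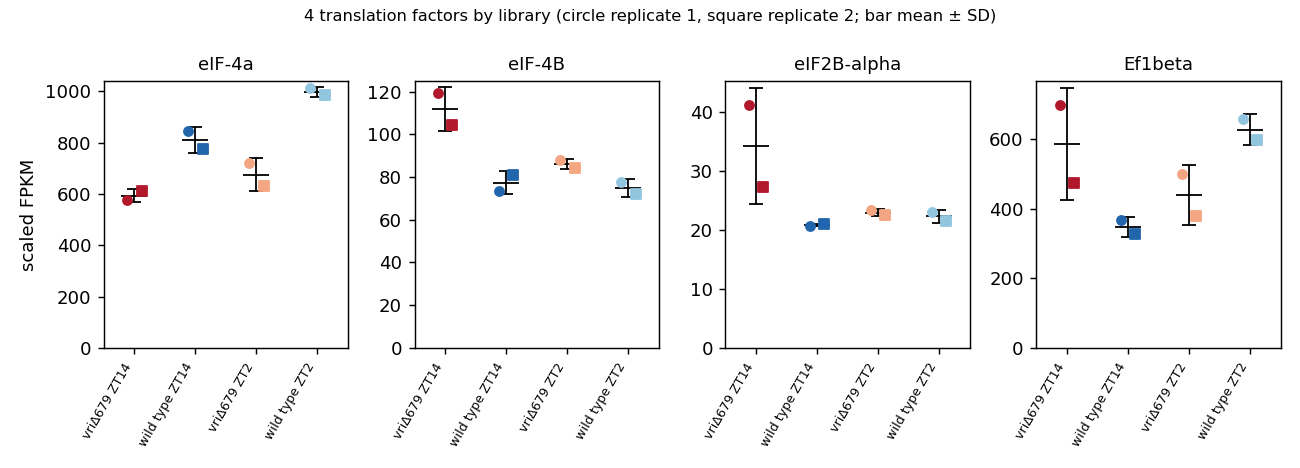
Scaled FPKM of eIF-4a, eIF-4B, eIF2B-alpha and Ef1beta in each library by group (circles replicate 1, squares replicate 2, bars mean ± SD, n = 2, axes from 0). The vriΔ679 libraries lie below wild type for eIF-4a at both times, and the 2 vriΔ679 ZT14 libraries stand far apart for eIF2B-alpha (41.2 and 27.3) and Ef1beta (700 and 474).

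The 6 listed transcripts of eIF-4a share 1 stop codon (2L 5985168–5985170) and differ in their starts and in their 3′ ends. The main transcript, which starts at 5981764 and ends at 5985559, made up 79.7 and 82.0 % of the gene's FPKM in vriΔ679 at ZT14, 91.1 and 90.2 % in wild type at ZT14, 85.8 and 85.2 % in vriΔ679 at ZT2 and 90.7 and 91.2 % in wild type at ZT2. A transcript that starts at 5982594 and ends at 5985793, with its last exon at 5985343–5985793 beyond the stop codon, ran the other way. It had 82.3 and 67.5 scaled FPKM in vriΔ679 at ZT14 against 34.8 and 35.7 in wild type, and 60.8 and 54.6 in vriΔ679 at ZT2 against 39.9 and 35.3 in wild type. Its share of the gene was 14.3 and 11.1 % in vriΔ679 at ZT14 against 4.12 and 4.61 % in wild type, and 8.44 and 8.66 % in vriΔ679 at ZT2 against 3.95 and 3.59 % in wild type. All 4 vriΔ679 libraries were above all 4 wild-type libraries in level and in share. With each of 18982 transcripts as the feature, where 4.6 % were called at ZT14 and 2.92 % over both times, this transcript rose in vriΔ679 by 1.09 ± 0.14 at ZT14 (SE, limma adjusted p = 0.0202) and by 0.85 ± 0.10 over both times (limma adjusted p = 0.0204).

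The calls on this transcript, which was singled out after its values had been seen, depended on the libraries kept. At ZT14 its difference was 1.24 without the library labelled vriΔ679 ZT14 replicate 2 and 0.94 without replicate 1, both called. The ZT14 call was lost without any of the 4 wild-type libraries (adjusted p of 0.0511 to 0.106), and the call over both times was kept only without either of the vriΔ679 ZT14 libraries (adjusted p elsewhere of 0.0662 to 0.0858). A scarce transcript from the same start that ends at 5985579 fell in vriΔ679, with 2.12 and 2.88 at ZT14 against 9.88 and 8.15 in wild type and 4.07 and 4.43 at ZT2 against 11.8 and 11.5 (over both times -1.50 ± 0.14, limma adjusted p = 0.00992), a call lost without either wild-type ZT2 library (adjusted p up to 0.0555). The main transcript fell as well over both times, by 0.62 ± 0.09 on the log2 scale (limma adjusted p = 0.0345), and kept its call only without the library labelled vriΔ679 ZT14 replicate 2. The authors' program divides reads among transcripts that share most of their sequence, and for other factors that division swung between replicates. For EF2, a transcript that took 99.5 % of the gene in wild-type ZT14 replicate 1 took 24.2 % in replicate 2, and for Ef1alpha100E the upstream start took 63.9 and 93.8 % in vriΔ679 at ZT14, 0 % in both wild-type ZT14 libraries and 25.2 and 68.1 % in vriΔ679 at ZT2, against 100 and 56.3 % in wild type at ZT2. Transcripts of Ef1alpha100E were called at ZT14, over both times, for time in wild type (1.1 % of all transcripts called) and for genotype by time (1.85 %), and 1 of eIF4G2 for time in vriΔ679 (2.34 %). These values were not used further. The annotation also places 37 bases of a transposon, blood, on exons of eIF-4a on the same strand.

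Between times, no factor was called in wild type, where 6.63 % of all genes were, and none in vriΔ679, where 9.97 % were. In wild type 5 factors, and in vriΔ679 7, had an unadjusted p under 0.05, where 20.0 % of all genes in wild type and 31.1 % in vriΔ679 did. In wild type the median log2 difference of ZT14 minus ZT2 was -0.13, with 5 factors above 0 and 25 below, against 0.00238 over all genes. It was -0.22 without wild-type ZT2 replicate 2, and -0.08 with equal totals, where the median of all genes was 0.05. The ZT14 libraries of wild type lay wholly below the ZT2 libraries for 19 factors and wholly above for 4 (eIF-1A, eIF4G, eIF4G2 and eIF5), where 30.9 % of all genes lay below and 32.1 % above. All 6 elongation factors lay below 0, with a median of -0.34, and so did all 5 eIF3 subunits, with a median of -0.32. Ef1beta had 369 and 327 at ZT14 against 660 and 597 at ZT2 in wild type, a difference of -0.85 ± 0.23 (limma adjusted p = 0.0819) that was called without either vriΔ679 ZT14 library, where 14.2 % of all genes were in each case. Ef1alpha48D had 1630 and 1335 at ZT14 against 2484 and 2087 at ZT2 in wild type, a difference of -0.63 ± 0.23 (limma adjusted p = 0.184). Cytosolic ribosomal proteins lay on the same side in wild type, with 85 of 85 below 0, a median of -0.49 and no call. Fat body markers summed to 7452 and 3589 at ZT14 and 13287 and 8427 at ZT2 in wild type, and muscle markers to 4612 and 5084 against 3069 and 3173. Photoreceptor markers summed to 15233 and 12672 at ZT14 against 18211 and 19619 at ZT2, and glia markers to 1169 and 1087 against 982 and 875. Neuron and hemocyte markers overlapped between the times in wild type. The part of these marker differences was not tested.

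In vriΔ679 the median of ZT14 minus ZT2 was 0.14, with 20 factors above 0 and 10 below, against -0.02 over all genes. It was 0.27 with 22 above 0 without the library labelled vriΔ679 ZT14 replicate 2, and 0.03 with 16 above 0 without replicate 1. With equal totals it was 0.06, where the median of all genes was -0.10. The ZT14 libraries lay wholly above for 9 factors and wholly below for 5, where 27.4 % of all genes lay above and 28.9 % below. Leaving out the library labelled vriΔ679 ZT14 replicate 2 gave 20 above and 6 below (44.3 and 45.9 % of all genes), and leaving out replicate 1 gave 11 above and 11 below (38.9 and 41.8 %). The 5 eIF2B subunits had differences of 0.12 to 0.55 with a median of 0.50, which was 0.73 without the library labelled vriΔ679 ZT14 replicate 2 and 0.25 without replicate 1. The smallest limma adjusted p among them was 0.0704, for eIF2B-delta (27.3 and 20.8 at ZT14 against 16.4 and 16.0 at ZT2). eIF4G had 29.7 and 46.4 at ZT14 against 57.0 and 62.8 at ZT2 (-0.68 ± 0.21, limma adjusted p = 0.0839), which was called without the library labelled vriΔ679 ZT14 replicate 2 (limma adjusted p = 0.00377) and was -0.36 without replicate 1 (limma adjusted p = 0.130). These values rested on the ZT14 libraries, which differed among themselves. Without the library labelled vriΔ679 ZT14 replicate 2, 13 factors were called (12 higher, eIF4G lower) where 45.6 % of all genes were, and without replicate 1 none was called, where 9.48 % of all genes were. Cell type markers also stood apart between the times in vriΔ679, fat body markers summing to 2699 and 1728 at ZT14 against 10466 and 6737 at ZT2, hemocyte markers to 39.5 and 37.1 against 81.3 and 86.1, and photoreceptor markers to 22934 and 23088 against 17278 and 15913. Glia markers summed to 633 and 616 at ZT14 against 823 and 664 at ZT2, and muscle markers to 2829 and 2475 against 3379 and 3060. Neuron markers overlapped. The part of these marker differences between times was not tested.

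**Figure D5:**
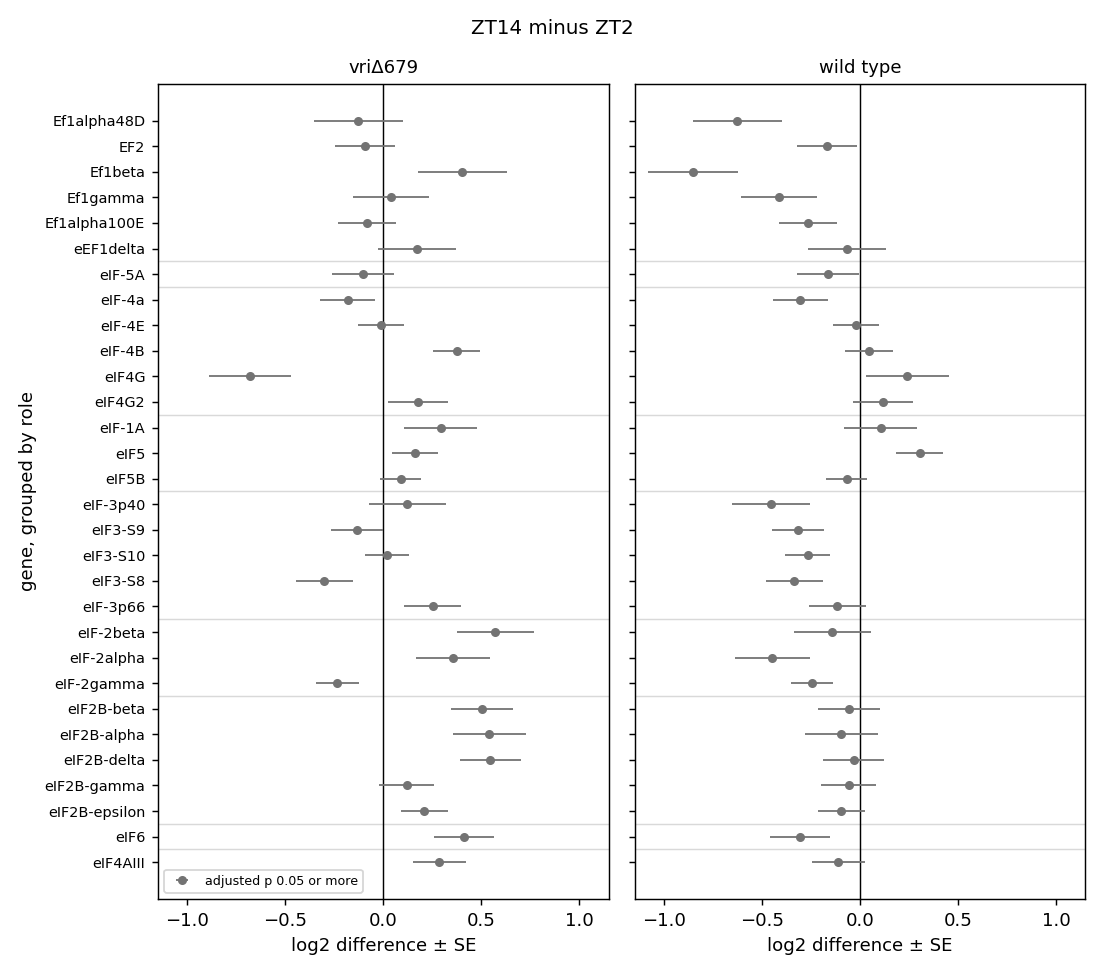
Log2 difference between ZT14 and ZT2 (ZT14 minus ZT2, points with SE bars from the limma fit, n = 2 libraries a group) for the 30 factors in vriΔ679 (left) and wild type (right). No factor passed an adjusted p of 0.05 in either genotype, and in wild type 25 of 30 points lie left of 0.

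The comparison of genotype by time asks whether the time difference in vriΔ679 was other than that in wild type. No factor was called by limma, where 8.25 % of all genes were, and 8 had an unadjusted p under 0.05, where 27.0 % of all genes did. The difference of differences was above 0 for 28 of the 30 factors, with a median of 0.26 against -0.01 over all genes. The median was 0.40 without the library labelled vriΔ679 ZT14 replicate 2 and 0.19 without replicate 1, and 22 factors were above 0 without vriΔ679 ZT2 replicate 2. When libraries were scaled to equal totals the median of all genes moved by -0.12 and 21 of 30 factors were above 0, with a median of 0.13. Ef1beta had the largest value, 1.25 ± 0.32 (limma adjusted p = 0.0603), which was 1.54 without the library labelled vriΔ679 ZT14 replicate 2 (limma adjusted p = 0.00716) and 0.97 without replicate 1. eIF-2alpha followed at 0.80 ± 0.27 (limma adjusted p = 0.116), then eIF6 at 0.72 ± 0.22 (limma adjusted p = 0.0927) and eIF-2beta at 0.71 ± 0.28 (limma adjusted p = 0.159). These were 1.06 for eIF-2alpha, 0.91 for eIF6 and 0.93 for eIF-2beta without the library labelled vriΔ679 ZT14 replicate 2, all called, and without replicate 1 they were 0.54, 0.53 and 0.49, with no call. eIF4G lay farthest below 0, at -0.92 ± 0.30 (limma adjusted p = 0.105), and was -1.24 without the library labelled vriΔ679 ZT14 replicate 2 and -0.60 without replicate 1. By role the medians were 0.71 for the 3 eIF2 subunits, 0.56 for the 5 eIF2B subunits, 0.34 for the 6 elongation factors and 0.29 for the 5 eIF3 subunits. They were 0.93, 0.77, 0.55 and 0.36 in the same order without the library labelled vriΔ679 ZT14 replicate 2 and 0.49, 0.33, 0.29 and 0.20 without replicate 1. Without the library labelled vriΔ679 ZT14 replicate 2, 13 factors were called (12 higher, eIF4G lower) where 41.5 % of all genes were, and without replicate 1 none was, where 12.8 % were. Ribosomal proteins had a median of 0.93, with 3 of 85 called, 80 without the library labelled vriΔ679 ZT14 replicate 2 and 16 without replicate 1.

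Other genes of the translation pathway that the symbol rule does not take give the setting. The tables hold 18 further genes that are now named as eIF or eEF factors, of which 14 were tested, and the group was drawn up after the files had been read. At ZT14, where 22.3 % of all genes were called, 3 of these 14 rose in vriΔ679: Tango7, the eIF3m subunit (280 and 164 in vriΔ679 against 118 and 118 in wild type, 0.86 ± 0.24, limma adjusted p = 0.0442), CG9769, the eIF3f subunit (242 and 200 against 157 and 142, 0.56 ± 0.15, limma adjusted p = 0.0412), and ligatin, or eIF2D (26.0 and 20.1 against 15.0 and 15.9, 0.55 ± 0.15, limma adjusted p = 0.0381). None of these 3 calls held without any 1 of the wild-type libraries. Of the 14, 8 were called without the library labelled vriΔ679 ZT14 replicate 2, where 51.3 % of all genes were, and without replicate 1 only Tango7 was, where 21.5 % were. CG9769 was also called for genotype by time, at 1.01 ± 0.21 (limma adjusted p = 0.0352), and kept that call only without either vriΔ679 ZT14 library. The scarce relatives eIF3d2 (CG4810), eIF3f2 (CG8335), eIF3g2 (CG10881) and eIF4H2 (CG1340) stayed at or under 0.221 scaled FPKM in all 8 libraries.

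Of 14 regulators of initiation tested, 5 differed at ZT14, where 22.3 % of all genes did. pAbp, the poly(A)-binding protein, NAT1, an eIF4G-like protein, larp, an RNA-binding protein that acts on mRNAs of the translation machinery, and S6k, the ribosomal S6 kinase, fell in vriΔ679, and Lk6, a kinase of eIF4E, rose. The log2 differences were -0.75 ± 0.17 for pAbp (limma adjusted p = 0.0218), -0.78 ± 0.13 for NAT1 (limma adjusted p = 0.00957), -0.96 ± 0.19 for larp (limma adjusted p = 0.0149), -0.62 ± 0.18 for S6k (limma adjusted p = 0.0462) and 0.89 ± 0.15 for Lk6 (limma adjusted p = 0.0085). Without the library labelled vriΔ679 ZT14 replicate 2, 7 of the 14 were called, where 51.3 % of all genes were, and without replicate 1, 4, where 21.5 % were. Lk6 lost its call without wild-type ZT14 replicate 2 (adjusted p = 0.0762), NAT1 and larp without either wild-type ZT14 library (adjusted p up to 0.0720 and 0.0902), pAbp without any wild-type library (adjusted p up to 0.118), and S6k held its call only without wild-type ZT14 replicate 1. In wild type, larp rose between times by 1.07 ± 0.19 at ZT14 (limma adjusted p = 0.0212), lost without any wild-type library (adjusted p up to 0.144). The 5 release and recycling factors and the 8 mitochondrial factors gave no call at ZT14, with 2 of each at an unadjusted p under 0.05, where 38.8 % of all genes were, and of 20 cytosolic aminoacyl-tRNA synthetases only CG33123, for leucine, was called (0.64 ± 0.14, limma adjusted p = 0.0198). For CG33123 the difference ran from 0.48 to 0.81 over the libraries left out in turn. Of 35 proteasome subunits, set beside them as another large machine, 29 were called lower and 1 higher at ZT14. Over all genes 12.8 % were called lower and 9.53 % higher. By direction 33 subunits lay below 0 and 2 above, with a median of -1.10. Against the mean of the wild-type ZT14 libraries, the median was -0.88 in vriΔ679 replicate 1 and -1.29 in the library labelled replicate 2. The fall was thus larger in the library that went against its label in part.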

How the data were processed

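Poly(A) RNA from heads was measured in 8 libraries, grouped by their labels. For each library the authors deposited transcript FPKM and, as a second signal column, per-base coverage, used here only to derive mapped reads from 75 nt reads. Alignment to dm6 with STAR 2.6.1d and quantification with StringTie are named in the submitters' processing notes. The labels' protocols name a directional kit, but the strand setting for counting is not given in the sources used here. Exons of 15 of the 35 factors overlap another gene, 4 of them on the same strand, and such values are uncertain.

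FPKM of a symbol's transcripts was added up. Libraries were then divided by factors of 0.972 to 1.041, the median of ratios taken across 12078 genes. A gene was tested if 2 or more libraries reached 1 FPKM, which 10122 genes did. The 4 groups were fitted together with limma 3.58.1 (R 4.3.3, statmod 1.5.0; eBayes with trend and robust) on the log2 of scaled FPKM plus 0.5, a scale that understates changes of low genes. Adjustment was by the method of Benjamini and Hochberg within each comparison, with a threshold of 0.05. All groups share 1 spread per gene in this fit, although vriΔ679 ZT14 replicates differed most. The fit was also run on simulated data, but with 1 spread per gene for all groups, so that run does not cover this unequal spread.

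Members and lists were chosen with earlier results of these data known. By rule, values in every library were given for called factors, the 6 most abundant and paralogs, and other factors were added after their values had been seen. Current symbols were matched through RefSeq accessions. Coordinates are those of the tables, and all 35 genes have the same ends in the Ensembl BDGP6 annotation, from which stop codons and overlaps were read. Alternatives were the filter, pseudocount, scaling, variance model, groups in the fit, transcripts as features, a replicate block and each library left out. Leaving libraries out of the transcript fit of eIF-4a was added after the data had been seen. Promoter motifs were not analysed here.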

Additional observations from a re-analysis of the deposited data

How the results depend on the processing

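The calls of eIF-4B and eIF2B-alpha at ZT14, and of eIF-4a and eIF-4B over both times, held with pseudocounts of 0.1 and 1, a minimum of 5 FPKM, no rescaling, equal totals, quantile normalization, eBayes without trend and robust, and the replicate block. Without a filter eIF2B-alpha lost its ZT14 call (limma adjusted p = 0.0664). Under that setting 1 factor, the scarce eIF4E-5, was called at ZT2, where 368 of 15357 genes were. With equal totals Ef1beta was the 1 factor called for time in wild type and for genotype by time. Of 10122 genes, 697 and 933 were called in these 2 comparisons. At ZT14 Ef1beta was added with no rescaling, equal totals, quantile normalization and the replicate block, eIF4E-6 without a filter, and eIF-4a with eBayes without trend and robust. Of 10122 genes, 2540 were called at ZT14 with no rescaling, 2241 with equal totals and 2207 with eBayes without trend and robust. Without a filter 2044 of 15357 genes were called at ZT14. Quantile normalization gave 5 at ZT14 (also eIF-2beta and eIF-4a), where 2578 of 10122 genes were called. It gave 1 for time in wild type, 1 for time in vriΔ679 and 1 for genotype by time. In these 3 comparisons 725, 1286 and 1046 genes were called, in the same order. With only the groups compared in the fit, 0 were called at ZT14 where 7.79 % of all genes were, and 3 for time in wild type (Ef1alpha48D, Ef1beta and eIF-2alpha), where 15.5 % of all genes were, and the mean over times and genotype by time could not be fitted. With each transcript as the feature, 1 factor was called for time in wild type, 1 for time in vriΔ679 and 1 for genotype by time. Over all transcripts 1.1, 2.34 and 1.85 % were called, in the same order. At ZT14 eIF-4B and eIF2B-alpha were not among the 2 factors called by transcript.

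Leaving out each library in turn gave 0 to 1 calls at ZT2, 0 to 16 at ZT14, 0 to 6 over both times, 0 to 1 for time in wild type, 0 to 13 for time in vriΔ679 and 0 to 13 for genotype by time. The counts of 16, 6 and 13 came without the library labelled vriΔ679 ZT14 replicate 2. Over the 30 factors, 6 comparisons and 8 libraries left out, 80 of 1440 differences changed sign, 5 to 19 for each library, and none of these was called with all libraries. Among differences with an unadjusted p under 0.05 or called under any setting, the 4 that changed sign did so without vriΔ679 ZT14 replicate 1: eIF2B-beta at ZT14 (-0.014 to 0.437 over the libraries left out), eIF2B-gamma for genotype by time (-0.014 to 0.367) and for time in vriΔ679 (-0.073 to 0.309), and eIF4G over both times (-0.295 to 0.022). The cause was not tested.

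The replicate numbers were not taken to pair the samples, since the labels do not say what these numbers share. The differences of replicate 1 minus replicate 2 correlated between groups at -0.143 to 0.270 across genes. These correlations cannot settle whether libraries with the same replicate number share an effect. With the replicate block 1 factor, Ef1beta, was called for time in wild type and for genotype by time, and 3 were called at ZT14. Of 10122 genes, 733, 860 and 2263 were called in these comparisons, in the same order. The 5 factors that were not tested had at most 1.10 scaled FPKM, where few reads limit the precision.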
